A study of Arabidopsis thaliana with 2 samples.

Results

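WRKY, MYB, NAC and bHLH proteins are among the largest families of plant transcription factors, and 12 of 13356 Arabidopsis thaliana genes with a probe set of their own were taken as members of these families. A gene was a member when its symbol in the array annotation was the family word followed by a number. The rule gave 6 WRKY genes, 5 bHLH genes, 1 NAC gene and 0 MYB genes. The annotation used here names 11799 of the 13356 genes only by a locus code and leaves 8730 of 22746 probe sets without a gene. The gene table of the TAIR10.1 assembly holds 67 WRKY, 115 MYB, 81 NAC and 13 bHLH symbols of the same form, and further bHLH genes stand there under other symbols, PYE among them. The values below describe the members, not the families as wholes, and nothing was measured for MYB genes under the rule.

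The members were compared between 15-day seedlings of the accession C24 as wild type and seedlings of the ros1-1 mutant, which the series' design text places in the C24 background. ROS1 is a DNA glycosylase that removes methylated cytosines from DNA. Both groups grew on MS medium at 22 °C with 16 h of light and 8 h of darkness, and total RNA was hybridised to Affymetrix arrays. Each genotype had 1 array and no replicates, so no test was possible, and every difference below describes these 2 arrays. The labels do not say how many seedlings were pooled. Because whole seedlings were used, fewer cells of a type and less RNA per cell cannot be told apart.

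WRKY proteins bind the W-box of promoters through a domain with the conserved WRKYGQK stretch, and many of them act in pathogen defence, leaf senescence and nutrient stress. bHLH proteins bind the E-box as dimers through a basic region and a helix-loop-helix, so the partners a protein meets decide much of what it does. NAC proteins share an N-terminal DNA-binding domain and act in stress, senescence and organ boundaries. All 5 bHLH members belong to the circuit that controls iron uptake. In that circuit the clade IVc proteins bHLH34, bHLH104 and bHLH115 work with bHLH121 to switch on the clade Ib genes, among them BHLH101. The Ib proteins then pair with FIT to drive the root genes for iron reduction and import.

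The arrays had a median signal of 216 for wild type and 213 for ros1-1. Signals are linear intensities that the authors had scaled, and their mean after trimming 2% from each end was 500.04 on both arrays. A gene counted as measured when the brighter array reached a floor of 132, the 40th percentile of all values, and lower values were raised to it before ratios were taken. Of 13 green shoot markers 2 had a named probe set, the photosynthesis genes LHCB4.1 at 18035 in wild type and 16264 in ros1-1 and RCA at 15226 and 17658. Of 8 root markers 4 had one: PYK10 was bright, at 13028 and 13729, AT5G66390 had 379 and 422, EXPA18 262 and 373, and EXPA7 154 and 193. None of the seed and flower markers had a named probe set. Of 6 pollen markers, a tissue that a seedling should lack, 3 had one. AGL65 had 166 and 151, over the floor on both arrays. AGL66 had 33.1 and 3.89 and AGL104 23.1 and 21.2, under it on both arrays. What the AGL65 signal stands for was not tested.

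Of the 12 members, 11 were measured, all of them on both arrays, and only WRKY42 was under the floor. As background, 55.9% of all single genes reached the floor. By family, 5 of 6 WRKY genes, all 5 bHLH genes and the NAC gene were measured. The median signal over members, whether measured or not, was 223 for WRKY genes and 341 for bHLH genes, against 160 over all single genes. Probe sets differ in how strongly they bind, so these medians describe brightness on the array and not transcript number.

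**Figure D1:**
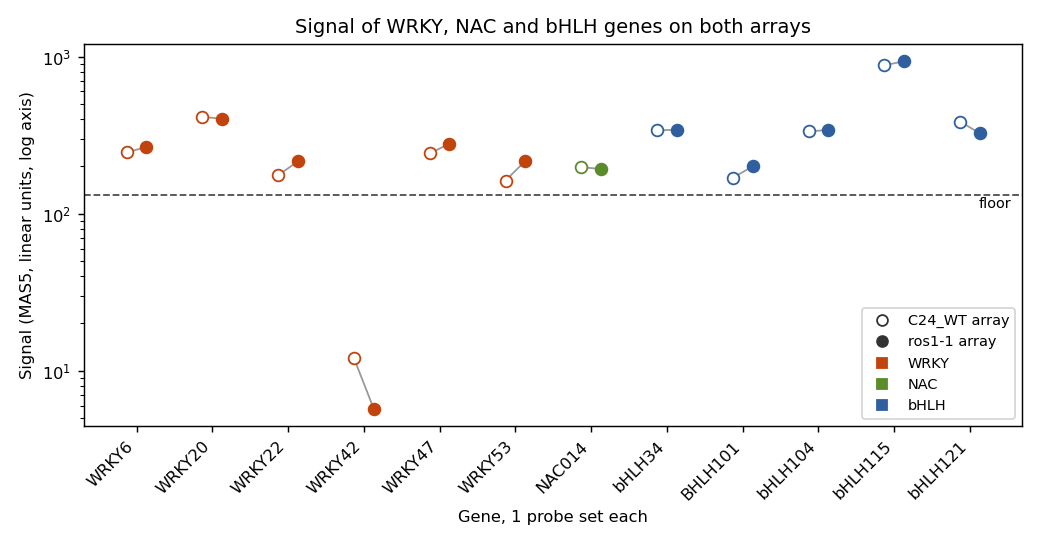
Signal of each member in linear MAS5 units on a log axis, with an open circle for the C24_WT array, a filled circle for the ros1-1 array and a dashed line at the floor of 132. All members but WRKY42 lie above the floor on both arrays, and bHLH115 is the brightest.

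No measured member differed by 1.5-fold or more between the arrays, and all 11 measured members lay between 1.19-fold lower and 1.33-fold higher in ros1-1. Among all 7464 measured single genes, 130 were at least 1.5-fold higher and 146 at least 1.5-fold lower, or 1.74% and 1.96%, together 3.7%. A count of 0 among 11 genes is therefore close to what this background gives. At 2-fold the background was 0.161% higher and 0.201% lower, together 0.362%, and 0 members reached it. At 1.3-fold, which 6.1% of measured genes passed upward and 7.72% downward, 1 member was higher and 0 were lower. Measurement scatter was estimated from 61 genes with several probe sets. Their log2 ratios varied within a gene with an SD of 0.19. This SD was 0.21 for those dimmer than a signal of 460 and 0.17 for the brighter ones. It leaves out error that all probe sets of a gene share, and differences between plants and RNA preparations.

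WRKY53 (AT4G23810), a positive regulator of leaf senescence, had the largest difference of all members. The signal was 163 on the C24 array and 216 on the ros1-1 array, so 1.33-fold higher, a log2 ratio of 0.41. Among 1980 other measured genes within 0.5 of its mean log2 signal, 18% differed by at least as much in either direction, and the SD of their log2 ratios was 0.31. The wild-type signal of WRKY53 was only 1.23 times the floor, and with an offset added instead of a floor its log2 ratio was 0.24.

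WRKY22 (AT4G01250), which acts in immune signalling downstream of bacterial flagellin, went from 176 in wild type to 215 in ros1-1, a log2 ratio of 0.29. Of the genes of like signal, 34.8% differed by at least as much. WRKY53 and WRKY22 thus had the highest log2 ratios of the members, and both were dim. A common function behind these values was not tested.

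WRKY6 (AT1G62300), WRKY42 (AT4G04450) and WRKY47 (AT4G01720) belong to the same branch of the family, group IIb. WRKY6 and WRKY42 are known as regulators of phosphate export to the shoot through the transporter gene PHO1. WRKY6 gave 246 on the C24 array and 266 on the ros1-1 array, a log2 ratio of 0.11 that is below the scatter of probe sets. WRKY47 had 242 and 279, a log2 ratio of 0.21. WRKY42 had deposited signals of 12.0 and 5.73, both far under the floor, and no ratio was taken. Both measured genes of this branch thus had log2 ratios above 0 but below 0.213, the SD for probe sets dimmer than 460. The remaining gene gave no usable signal.

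WRKY20 (AT4G26640), of group I, was the WRKY gene with the highest signal and the only measured one that was not higher in ros1-1. It had 414 in wild type and 402 in ros1-1, a log2 ratio of -0.04. The median log2 ratio of the 5 measured WRKY genes was 0.21, the value of WRKY47, against -0.01 over all measured single genes. That median was 0.14 with the offset and -0.041 once the floor was raised to the 60th percentile, which left WRKY20 alone as measured. The RefSeq table lists 7 transcripts for WRKY20 and 1 each for WRKY6, WRKY22, WRKY47 and WRKY53, and a single probe set cannot tell transcripts of a gene apart.

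NAC014 (AT1G33060) stands alone for the NAC family and belongs to the NAC proteins predicted to be held in membranes until they are released. The C24 array gave 198 and the ros1-1 array 193, a log2 ratio of -0.04. Of the genes of like signal, 90.5% differed by at least as much, so the arrays gave nearly the same value for this gene.

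The clade IVc iron regulators were nearly equal on the arrays. bHLH34 (AT3G23210) gave 339 for wild type and 342 for ros1-1, a log2 ratio of 0.01. bHLH104 (AT4G14410) had 334 and 341, a log2 ratio of 0.03. bHLH115 (AT1G51070), the brightest member, had 882 and 933, a log2 ratio of 0.08. All 3 differences were less than the scatter of probe sets, and between 67.9% and 96.3% of genes of like signal differed by at least as much.

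bHLH121 (AT3G19860), the partner of the clade IVc proteins, had the largest difference in the lower direction. The C24 array gave 386 and the ros1-1 array 325, which is 1.19-fold lower, a log2 ratio of -0.25. Of the genes of like signal, 31.4% differed by at least as much.

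BHLH101 (AT5G04150), the clade Ib member that plants short of iron express strongly, had the lowest mean log2 signal of the measured members. It had 169 on the C24 array and 200 on the ros1-1 array, which is 1.18-fold higher, a log2 ratio of 0.24. Its wild-type signal was 1.28 times the floor, and 43% of genes of like signal differed by at least as much. The median log2 ratio of the 5 bHLH genes was 0.03, with bHLH121 and BHLH101 at the ends of the range.

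**Figure D2:**
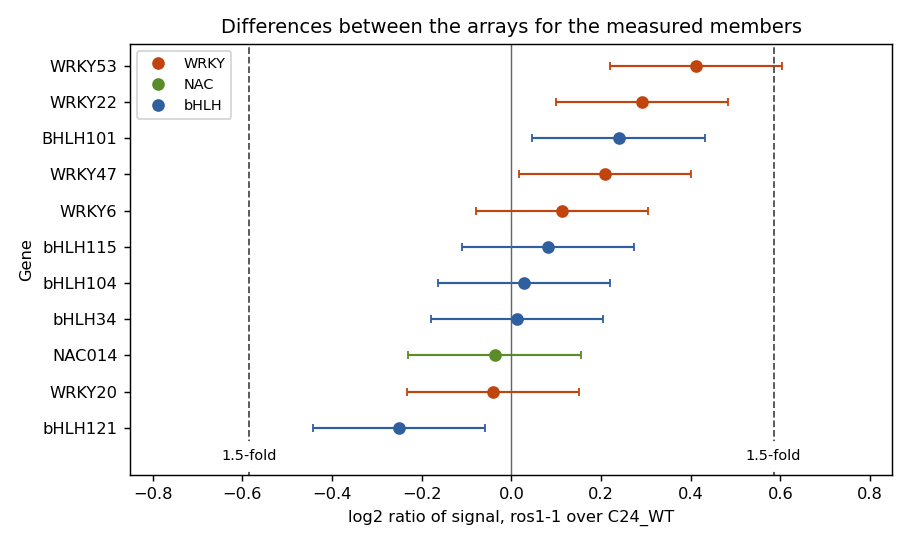
The log2 ratio of signal, ros1-1 over C24_WT, for the 11 measured members in order of size. Bars are the SD of 0.19 of probe sets of 1 gene, not a replicate error, and dashed lines mark 1.5-fold. All points lie between the lines, from bHLH121 at -0.25 to WRKY53 at 0.41.

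Measured members were higher on the ros1-1 array in 8 of 11 cases, and 49.2% of all measured genes were above a log2 ratio of 0. The WRKY genes and the bHLH genes each had 4 of 5 higher, and the NAC gene was lower. The signs of the smallest ratios carry little, since 6 of the 11 were smaller than the SD of 0.19. The SD of 0.213 for probe sets dimmer than 460 also exceeds the log2 ratio of 0.209 for WRKY47. The members with a signal under 300 on both arrays, 6 in all, had log2 ratios from -0.04 to 0.41 with a median of 0.22, and 5 were higher. The 5 members at 300 or more on both arrays ran from -0.25 to 0.08 with a median of 0.01. The higher values thus lay among the dimmer members, and the SD of log2 ratios over genes of like signal was 0.31 around WRKY53 and 0.23 around bHLH115. The part that low signal plays in them was not tested. The 4 root markers were also all higher on the ros1-1 array, with log2 ratios from 0.08 for PYK10 to 0.51 for EXPA18 and a median of 0.24, while the green shoot markers were at -0.15 for LHCB4.1 and 0.21 for RCA. Of the root markers, PYK10 and AT5G66390, at 0.16, lay below the SD of 0.19, and EXPA7 was dim, at 154 in wild type. The part of root tissue in the values of the members was not tested.

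**Figure D3:**
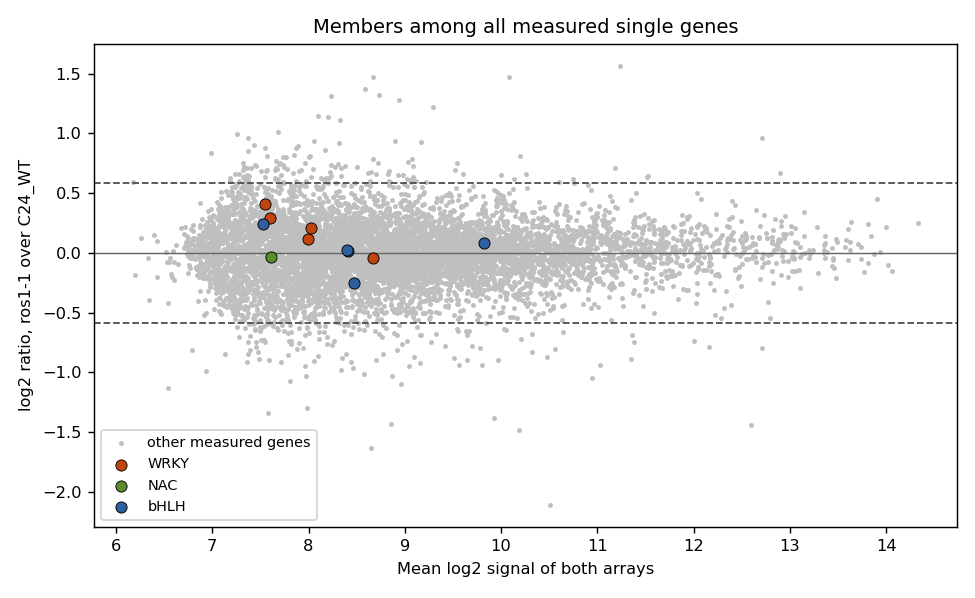
The log2 ratio, ros1-1 over C24_WT, against the mean log2 signal of both arrays, with a grey point for each other measured single gene, coloured points for the members and dashed lines at 1.5-fold. The 11 members lie inside the cloud of the other genes, and the points of bHLH34 and bHLH104 coincide.

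The members are few, so their spread is given as a description only. The SD of their log2 ratios was 0.18, against 0.27 over all measured genes, and the median size of the ratio without its sign was 0.11 against 0.15. The SD was 0.17 over the WRKY genes and 0.18 over the bHLH genes.

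The bZIP family, another group of DNA-binding regulators named by symbol in the same way, was set beside the members. Of 14 bZIP genes, 8 reached the floor, and their log2 ratios ran from -0.50 for BZIP61 to 0.48 for BZIP60, a regulator of the unfolded protein response. Their median was 0.01. As among the members, 0 of these genes were at least 1.5-fold different.

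The members sit on 4 chromosomes, with 6 on chromosome 4, 3 on chromosome 1, 2 on chromosome 3 and 1 on chromosome 5. In the gene order of TAIR10.1, the 5 measured genes on each side of each member gave 120 neighbours with a median log2 ratio of 0.02. Of these, 1 was at least 1.5-fold higher and 1 at least 1.5-fold lower, or 1.67%, against 3.7% of all measured genes. The higher one was CRR41 beside bHLH115, at 0.59, and the lower one AT5G04060 beside BHLH101, at -0.66. The neighbours of WRKY53 had a median of 0.10 and ran from -0.47 to 0.58, the latter in AT4G23680 and just under the 1.5-fold threshold.

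**Figure D4:**
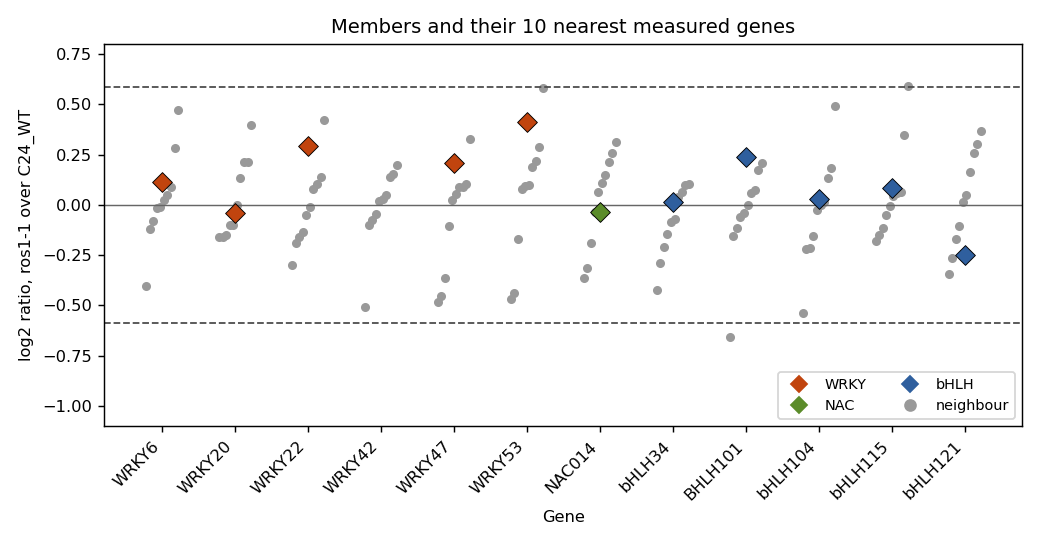
The log2 ratio, ros1-1 over C24_WT, of each measured member as a diamond and of its 10 nearest measured single genes in gene order as grey points in order of size, with dashed lines at 1.5-fold. WRKY42 has no diamond because it was under the floor, and 2 of the 120 neighbours lie outside the dashed lines.

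Relatives of the members that carry another symbol were looked up after the values had been seen. PYE, a bHLH regulator of the iron response that is itself a target of the clade IVc proteins, had 451 on the C24 array and 660 on the ros1-1 array, which is 1.46-fold higher, a log2 ratio of 0.55. ILR3, which is bHLH105 of clade IVc, had 1644 and 1526, a log2 ratio of -0.11. Of 12 fixed iron bHLH genes, 6 were matched by symbol or synonym, ILR3 and the 5 members. Their median was 0.02 and 0 were at least 1.5-fold different. PYE is on that list by its bHLH number but was not matched, so that median leaves it out. ZAP1, which is WRKY1 of group I, had 679 and 536, a log2 ratio of -0.34. AT1G22490, which is bHLH94, was at 63.8 and 72.3, under the floor on both arrays.

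For the MYB family some looser relatives were picked, also after their values had been seen. MYB genes named only by a locus code were not sought beyond synonyms, so these relatives do not stand for the family. MYBC1, whose name starts with MYB but carries no number, had 194 in wild type and 118 in ros1-1, where it was under the floor, so it was at least 1.47-fold lower. AT5G47390, also called KUA1, a single-repeat MYB-related regulator of leaf growth, had 975 and 793, a log2 ratio of -0.30.

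Genes known to act downstream of these families were thinly named: of 77 genes in 7 lists, 6 had a named probe set. None of the 11 iron uptake genes was among them, nor any of the 10 secondary wall or 9 jasmonate genes. Of the iron circuit's targets, BHLH101 and PYE are given above, and the listed iron uptake genes were not examined here. Of 7 senescence genes the one named was SAG29, a sucrose transporter of senescing leaves, at 411 on the C24 array and 957 on the ros1-1 array, which is 2.33-fold higher. Of 14 defence genes the one named was SAG101, a partner of EDS1 in immunity. It was dim, at 174 on the C24 array and 233 on the ros1-1 array, a log2 ratio of 0.43. Of 13 genes each, the flavonoid list had DFR at -0.25 and UF3GT at 0.01, and the glucosinolate list had UGT74B1 at -0.22 and BCAT4 at -0.12. The probe set with the symbol CHI was left out, because its locus AT2G43570 is a chitinase and not chalcone isomerase.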

How the data were processed

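The authors deposited 1 linear signal intensity per probe set and array, made with MAS5, as the submitters' processing notes name it. Its version, scaling target and detection calls are not given here. After 64 control probe sets were set aside, 22746 remained. Of these, 13513 had 1 gene in the platform annotation, 503 had several and 8730 none, and 13436 of the 13513 matched the RefSeq table of TAIR10.1. A gene took its brightest probe set, and each member had 1, ending in plain _at.

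Ratios are log2 of ros1-1 minus log2 of C24_WT, with no further scaling and a floor at the 40th percentile. Called meant at least 1.5-fold. With 1 array per genotype there was no test, and the number of arrays limits the precision of every value. The members, lists and thresholds were chosen with earlier results of these data known. The rule for named genes took the measured members at least 1.5-fold different, the 3 highest and 3 lowest ratios of each family, its 2 brightest members and the 2 nearest the floor, and members of role lists, and so named the 11 measured members. The 28 role lists held 235 entries, of which 14 genes were matched by symbol or synonym. Of these, 13 were measured, in 6 lists, with 0 at least 1.5-fold different. PYE was not matched and is not among them. Chosen outside the rule were WRKY42, PYE, MYBC1, AT5G47390, ILR3, ZAP1, AT1G22490, CHI, the neighbours and the bZIP genes. Some further genes are not reported here. Python 3.11.15, numpy 2.4.6, pandas 2.3.3 and statsmodels 0.14.6 were used, and the steps were tested on simulated data. Alternatives were other floors, scalings, an offset, thresholds, and rules for symbols and probe sets.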

Additional observations from a re-analysis of the deposited data

How the results depend on the processing

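With 1 array per genotype no replicate could be left out. No paired analysis was possible because each genotype had 1 array. Of 83 values under the alternatives, 78 were labelled unchanged. A ratio or signal had to stay within the measurement scatter, and a share within its 95% exact binomial interval. That interval takes the few genes of a family as independent replicates and is wide, so the label decides little for shares. The bHLH share fell from 100% to 80% under a floor of 325 and was still labelled unchanged. Neither range suits a count: of 24 counts, 23 stayed at 0 and 1 was labelled moved. Many of the 78 could not move. Each member had 1 probe set, ending in plain _at, so both rules for probe sets repeated the main values. Allowing letters after the number of a symbol added 0 genes. A count of 0 at 1.5-fold cannot rise under the stricter 2-fold threshold. Lowering the floor to a signal of 54.4 also left every value as it was. The 78 therefore partly reflects settings that had no effect on these members. With the floor at the 60th percentile, a signal of 325, 5 members were still measured: the share of WRKY genes was 16.7% and that of the NAC gene 0%, and the WRKY median log2 ratio was -0.041, which is the value of WRKY20 alone. A threshold of 1.3-fold called 1 member higher, WRKY53, against 6.1% of all measured genes, and 0 lower; at 2-fold the counts were 0 and 0. With synonyms taken too, 3 genes joined the members and the WRKY median log2 signal was 8.00, against 7.80. Adding an offset instead of a floor put WRKY53 at 0.24 and bHLH121 at -0.18. Median centring, quantile normalization and lowess moved members by at most 0.03 and changed no sign in 11 of 11. Genotype and array cannot be told apart, and low signal limits the dimmer members most.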
